A study of Mus musculus with 6 samples.

Results

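The genes described here are Egr1, Egr2, Egr3, Ier2, Ier3, Ier5, Cyr61 (now Ccn1), Ctgf (now Ccn2), Srf and Zfp36, 10 early response genes whose transcripts can appear within minutes of a signal. They were taken from the array by name, as all probes that carry one of the 10 gene names and are not controls, which gave 12 of 55681 probes and 10 of 34781 gene names. The list was selected on the probes' processed signals in CBZ against DMSO, known from these mice, so that contrast is described for the 10 genes and not tested as evidence. RNA came from the livers of C57BL6/J mice, which belong to an inbred strain, and was taken 2 h after dosing by mouth. The treated mice, 3 in number, were dosed at 250 mg/kg with a compound that the labels call only CBZ, while 3 control mice had dimethyl sulfoxide (DMSO), a solvent. The age and sex of the mice were not given in the sources used here, and no allele other than the strain is named. Each liver was hybridised to 1 single-colour Agilent array, and the arrays are called DMSO 1 to 3 and CBZ 1 to 3 after the replicate numbers in the labels.

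Immediate early genes are switched on by factors that are already present in the resting cell, so their first transcripts need no new protein. EGR1, EGR2 and EGR3 are zinc finger transcription factors downstream of ERK signalling, and SRF, the serum response factor, binds the CArG box in the promoters of many early genes together with ternary complex factors or with actin-sensing cofactors. CCN1 and CCN2 are secreted matricellular proteins and standard targets of YAP and TAZ, the coactivators of the Hippo pathway. IER2, IER3 and IER5 are small proteins named for their early induction, and ZFP36 (tristetraprolin) binds AU-rich elements and speeds the decay of cytokine and early gene messages. In liver these genes are known for their quick response to partial hepatectomy, injury and mitogens. Whole-liver RNA was measured, so fewer cells of a type and less RNA per cell cannot be told apart.

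Values are given as scaled intensity, the background-subtracted signal of a spot multiplied so that every array has the same 75th percentile, in array units. The arrays had 42.6% to 45.8% of spots well above background, as the scanner software flags it, and 75th percentiles of 158 to 191 before scaling. No spot was saturated. Any pair of arrays correlated with r between 0.988 and 0.993 across the 22352 probes compared, those that this flag passed throughout at least 1 group of 3 arrays. All 8 hepatocyte markers were among them. Their summed scaled intensity ran from 1006300 to 1032700 in DMSO and from 995720 to 1127800 in CBZ. All arrays lay on 1 slide, with CBZ 1 in the row of the DMSO arrays and CBZ 2 and CBZ 3 in the other row. Within the shared row the comparison rests on CBZ 1 alone, and its values stand beside the main ones below. With 3 arrays a group, precision is limited by their number. Nothing in the labels beyond the replicate numbers says how the mice were handled, so p-values measure only the spread between these samples.

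In the livers of CBZ-treated mice the messages of Egr1, Ccn1 and Ier2 were lower than in DMSO livers, without overlap between the groups, and 1 of 2 Srf probes was lower in the same way. Ccn2 went the other way in its mean and overlapped, Ier5 was near level, and Egr2, Egr3, Ier3 and Zfp36 were too dim to compare. Of the 12 probes 7, of 6 genes, passed the filter on dim probes. None of the 7 passed limma's threshold of an adjusted p of 0.05, beside 0.0626% of all probes compared (0.0537% higher and 0.00895% lower in CBZ). At an unadjusted p under 0.05 in limma 4 did, beside 9.38% of all probes. In 4 of the 7 every CBZ value lay below every DMSO value, where 7% of all probes were lower in that way, 6.25% higher, and 13.2% either. Since the list was chosen with this contrast known, nothing is read from these shares. The median log2 fold change of the 7 probes was -0.56, and that of all 22352 probes was -0.0062.

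**Figure D1:**
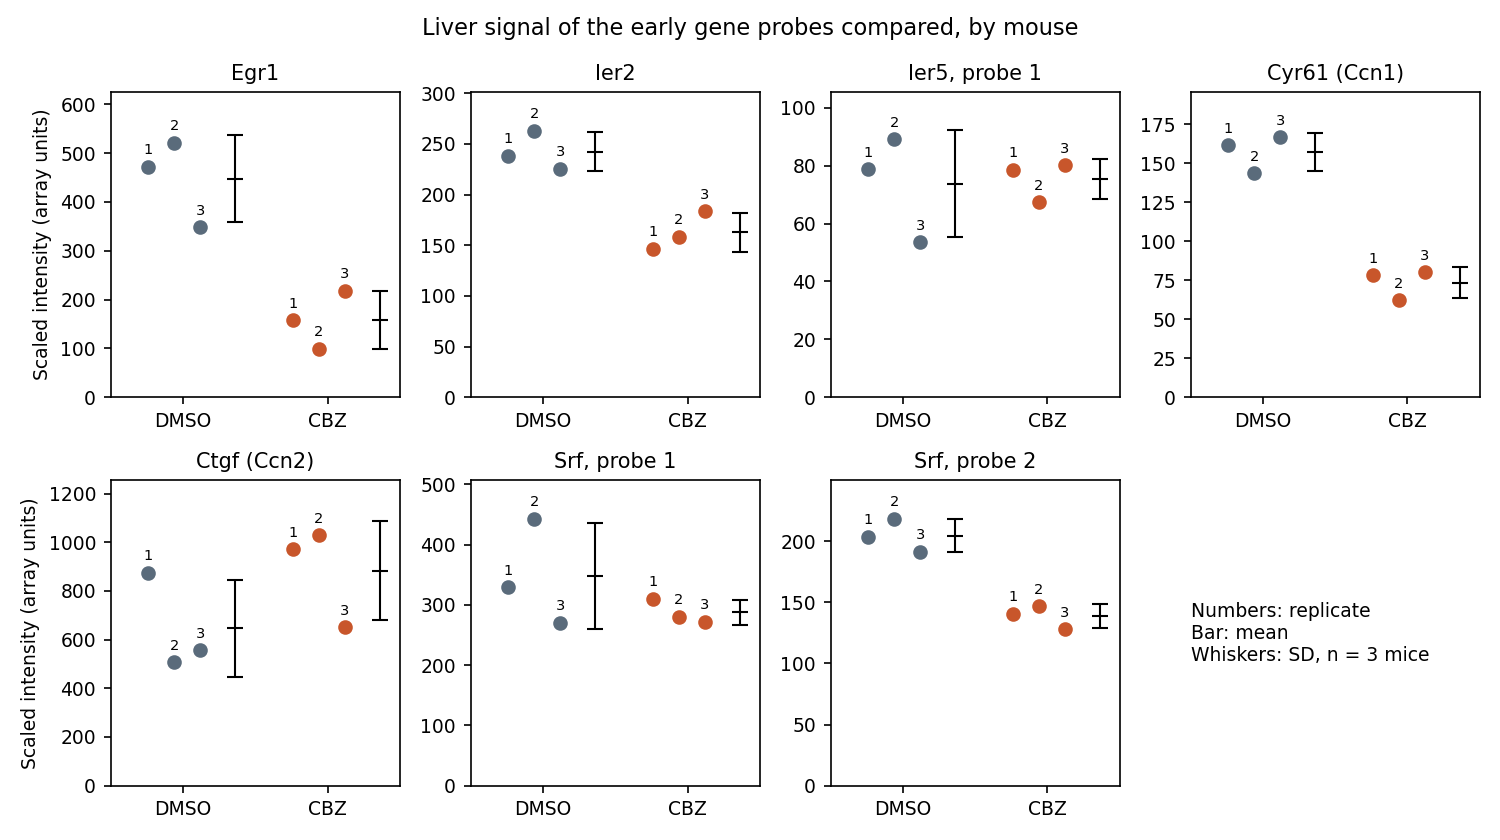
Scaled intensity (array units, linear axes from 0) of the 7 probes compared, by group, with a point for each mouse numbered by replicate and the mean and SD of 3 mice beside them. The groups stand apart for Egr1, Ier2, Cyr61 (Ccn1) and Srf probe 2, while for Ier5, Ctgf (Ccn2) and Srf probe 1 they overlap.

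Egr1, the best known member of its family and a factor induced through ERK and SRF, had the largest difference of the 6 genes compared. Its scaled intensity was 472, 521 and 348 in DMSO 1 to 3 and 158, 98.8 and 218 in CBZ 1 to 3. The lowest DMSO value was 1.60 times the highest CBZ value, and CBZ 2 was the lowest of all 6 mice. The mean was 447 ± 89.2 in DMSO and 158 ± 59.7 in CBZ (SD, n = 3 mice each), a 2.93-fold lower level on the log2 scale (log2 fold change -1.55 ± 0.28 SE). Within the slide row that CBZ 1 shares with DMSO the log2 fold change was -1.48. Leaving out 1 mouse at a time gave values from -1.82 without CBZ 3 to -1.25 without CBZ 2, and another background correction, normexp, gave -1.07. The single Egr1 probe lies on chromosome 18 at 35024395 to 35024454 of the mouse build mm9, on which the array was designed. Whether the probes lie in coding or untranslated exons was not analysed here.

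The other EGR genes gave no comparison. Egr2, known from Schwann cell and hindbrain development, was not well above background on any array, at scaled intensities of 8.82 to 12.1 in DMSO and 8.73 to 13.0 in CBZ. Egr3, a target of EGR1 and of calcium signalling, read 63.8, 43.3 and 28.8 in DMSO and 106, 30.9 and 27.7 in CBZ. It was well above background only in DMSO 1 and CBZ 1, so the 2 groups each held 1 measured mouse and 2 that were not. The Egr2 probe lies on chromosome 10 at 67004798 to 67004857 and the Egr3 probe on chromosome 14 at 70479222 to 70479281 (mm9).

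Partners of the EGR factors were looked up from a list of 4 genes, of which Egr4 and Wt1 were too dim to compare. Nab2, which encodes a corepressor of EGR1 and is itself known as an EGR target, read 929, 994 and 946 in DMSO and 588, 774 and 443 in CBZ. All 3 CBZ values lay below the DMSO values, at a log2 fold change of -0.71 ± 0.20 (SE, n = 3), but limma's adjusted p was 0.29. Over the 17 alternative ways of processing its log2 fold change kept its sign and ran from -0.91 to -0.50. Nab1, the related corepressor, was at -0.09 ± 0.16 with overlapping groups. Of the 2 genes compared, 0 passed the threshold over all probes in limma, where 0.0528% of all genes did, and 1, Nab2, had an unadjusted p under 0.05, as 8.96% of all genes had.

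Srf itself was read by 2 probes, 1518 bp apart on chromosome 17 (mm9), which did not give the same difference. The brighter one, at 46683788 to 46683795, read 329, 443 and 270 in DMSO and 310, 281 and 272 in CBZ. Its listed span is far shorter than those of the other early gene probes, and the reason was not examined. Its groups overlapped, since DMSO 3 lay below every CBZ mouse, and the log2 fold change was -0.25 ± 0.19 (SE, n = 3). The other, at 46685306 to 46685365, read 203, 218 and 191 in DMSO and 141, 147 and 128 in CBZ. Here the CBZ mice all lay below the DMSO mice, 1.48-fold lower, at -0.56 ± 0.13 (SE, n = 3). Within the shared slide row the values were -0.13 and -0.54. Normexp gave -0.37 for the second, and leaving out DMSO 2 gave -0.056 for the first.

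RefSeq promoter entries (GRCm38.p6) were found for 6 of the 10 genes, Ccn1, Egr2, Ier3, Ier5, Srf and Zfp36. Their 250 bases before the transcription start were searched on both strands for the CArG box, the EGR motif GCGNGGGCG, the TEAD motif GGAATG, the ETS motif CCGGAAG, the CREB core site TGACG and full site TGACGTCA (which holds the core site), and TATAAA. The Srf and Ccn1 windows are shown because these genes had lower probes in CBZ, and the Ier5 window because Ier5 was near level. Sequences run 5′ to 3′ on the gene's strand, and capitals mark the matches. Srf is at chr17:46556163-46556412 (minus strand), Ccn1 at chr3:145649986-145650235 (minus strand) and Ier5 at chr1:155099637-155099886 (minus strand).
Srf: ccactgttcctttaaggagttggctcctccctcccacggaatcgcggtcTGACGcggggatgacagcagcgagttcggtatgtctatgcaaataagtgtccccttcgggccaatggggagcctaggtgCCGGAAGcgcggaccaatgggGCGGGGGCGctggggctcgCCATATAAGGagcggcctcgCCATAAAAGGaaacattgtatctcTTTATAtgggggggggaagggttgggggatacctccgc
Ccn1: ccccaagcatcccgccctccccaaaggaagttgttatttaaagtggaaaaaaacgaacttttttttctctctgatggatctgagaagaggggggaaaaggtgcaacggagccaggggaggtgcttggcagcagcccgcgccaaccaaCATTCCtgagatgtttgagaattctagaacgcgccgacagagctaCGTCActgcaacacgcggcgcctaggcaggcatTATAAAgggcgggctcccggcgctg
Ier5: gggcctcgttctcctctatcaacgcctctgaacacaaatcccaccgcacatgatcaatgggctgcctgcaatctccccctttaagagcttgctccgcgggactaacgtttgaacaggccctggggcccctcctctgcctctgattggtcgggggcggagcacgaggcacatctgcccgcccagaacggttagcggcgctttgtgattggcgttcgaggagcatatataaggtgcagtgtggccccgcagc

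The Srf window held 2 CArG boxes, 82 to 73 and 62 to 53 bases before the start, with 1 EGR motif ending 93 bases before it, 1 ETS motif at 122 to 116, the CREB core site at 201 to 197 and a reversed TATAAA at 38 to 33. Ccn1 held the TEAD motif in reverse at 103 to 98, the CREB core site in reverse at 58 to 54 and TATAAA at 25 to 20. Ier5 and Ier3 held no match to any of the letters searched. A CArG box was also found in Zfp36, at 58 to 49, and in 4 of the 5 Egr2 entries, which overlap in part. Of all 32851 promoter entries 1.47% held a CArG box in the same window, 4.7% the EGR motif, 12.6% the TEAD motif, 6.91% the ETS motif, 17.8% the CREB core site, 1.55% the full site and 12.4% TATAAA. These are matches of letters, and binding was not measured. A link between the matches and the differences between CBZ and DMSO was not tested.

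As reported, Ccn1 had the widest gap between the groups among the early gene probes compared. Its scaled intensity was 161, 144 and 167 in DMSO and 78.0, 62.3 and 80.0 in CBZ, so that the lowest DMSO mouse was 1.79 times the highest CBZ mouse. The means were 157 ± 12.1 and 73.4 ± 9.72 (SD, n = 3 mice each), a 2.15-fold lower level (log2 fold change -1.10 ± 0.15 SE). The value was -1.01 within the shared slide row and ran from -1.17 to -0.99 as 1 mouse at a time was left out. Normexp gave -0.55. The probe lies on chromosome 3 at 145310187 to 145310246 (mm9).

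Ccn2, the close relative of Ccn1, did not follow it. It read 876, 508 and 557 in DMSO and 971, 1029 and 651 in CBZ, and DMSO 1 lay above CBZ 3. The means were 647 ± 200 and 884 ± 203 (SD, n = 3 mice each), with a log2 fold change of 0.46 ± 0.25 (SE). That value was 0.70 without DMSO 1 and 0.31 without DMSO 2, and it was 0.63 within the shared slide row. The spread between mice was wide, as the SD within groups of 0.39 on the log2 scale exceeded that of 90.7% of probes. Its probe lies on chromosome 10 at 24318281 to 24318340 (mm9). The other 4 CCN genes, Nov, Wisp1, Wisp2 and Wisp3, were all too dim to compare.

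Markers of the liver cells that can also make CCN1 and CCN2 were summed in the same mice. The 10 stellate cell and fibroblast markers compared summed to between 24280 and 26130 in DMSO and between 21583 and 36184 in CBZ. CBZ 2, the mouse with the highest Ccn2, had the highest sum, while CBZ 1, with the next highest Ccn2, had the lowest. Most of the sum was Dcn, at 23808 in CBZ 2 and 13447 in CBZ 1. For the 9 markers of sinusoidal endothelium the sums were 14341 to 22553 in DMSO and 16084 to 18885 in CBZ. Kupffer cell and macrophage markers, 8 of 9 compared, summed to 22175 to 49632 in DMSO, with DMSO 1 highest, and to 28788 to 34981 in CBZ. In these 3 lists the range of one group held values of the other. Only the erythroid sum separated the groups, at 8498 to 13075 in DMSO and 7126 to 7994 in CBZ, from 2 of 4 markers. Nearly all of that sum was Alas2, a haem synthesis gene of red cell precursors, and the other marker, Slc4a1, overlapped at a log2 fold change of 0.0034. Bile duct markers, 3 of 6 compared, gave 383 to 586 and 527 to 720. The stellate marker Des, the macrophage marker Cd163, the bile duct markers Epcam, Sox9 and Cftr and all 6 mesothelial markers were below the filter. The part of any of these cell types in the differences was not tested.

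Of the IER genes, Ier2, a nuclear protein gene induced by serum, was lower in CBZ. It read 238, 263 and 226 in DMSO and 146, 158 and 184 in CBZ. The groups did not overlap, with CBZ 3 nearest to DMSO 3, and the log2 fold change was -0.58 ± 0.14 (SE, n = 3), or 1.49-fold lower. Within the shared slide row it was -0.72, with normexp -0.39. Its probe lies on chromosome 8 at 87186214 to 87186273 (mm9).

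Ier5, which encodes a protein linked to heat shock factor activity, has 2 probes 2235 bp apart on chromosome 1 (mm9). The brighter, at 156945765 to 156945824, read 78.9, 89.3 and 53.5 in DMSO and 78.7, 67.4 and 80.3 in CBZ. DMSO 2 was the highest and DMSO 3 the lowest of all 6, so the CBZ mice lay inside the DMSO range, and the log2 fold change was 0.06 ± 0.20 (SE, n = 3). It turned negative, at -0.16, without DMSO 3 and, at -0.04, with array median scaling. The dimmer probe, at 156943530 to 156943589, was well above background only in CBZ 1, at 72.4 against 27.5 and 27.0 in the other CBZ mice and 33.5 to 40.2 in DMSO. Ier3, an apoptosis regulator, was not well above background on any array, at 7.63 to 9.88 in DMSO and 7.77 to 10.8 in CBZ.

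Zfp36 was seen in 1 mouse. Its probe, on chromosome 7 at 29161940 to 29161999 (mm9), read 173 in DMSO 1 and 9.62 and 12.7 in DMSO 2 and DMSO 3, and 13.4, 8.92 and 10.6 in CBZ. Only DMSO 1 was well above background, so the other readings are not measured levels. The spot in DMSO 1 had a mean of 249 over 41 pixels with a pixel SD of 49.6, against means of 41.0 to 62.9 on the other arrays, and the software set no outlier flag on any of them. The local background of the DMSO 1 spot was 22, against 14 to 15 on the other arrays. Of 55681 probes, 265 were well above background in DMSO 1 alone, and 296 to 840 were so in 1 of the other arrays alone. Of the 265, only 5 read at least 10-fold above every other array, Zfp36 among them, while 0 to 11 did so on the other arrays. DMSO 1 was also the mouse with the highest sum of macrophage markers, whose part in the Zfp36 value was not tested.

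**Figure D2:**
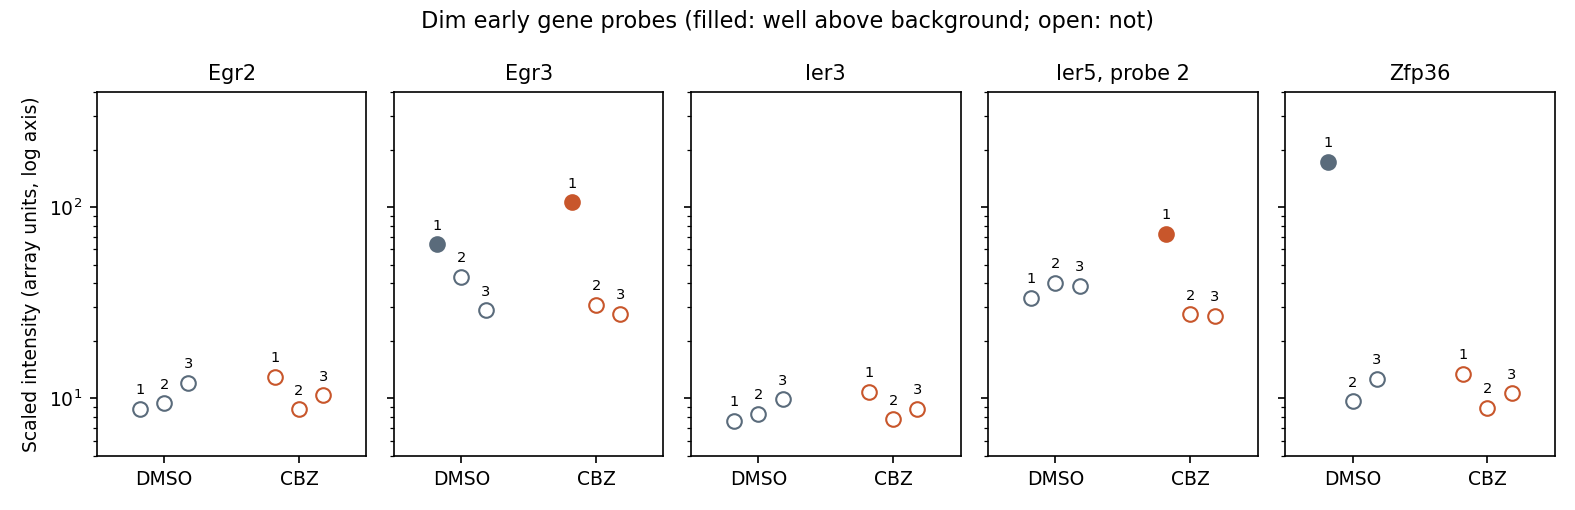
Scaled intensity (array units, log axis) of the 5 dim probes in each mouse, numbered by replicate, with filled points well above background and open points not. Zfp36 stands out in DMSO 1 at 173, and Egr3 and the dimmer Ier5 probe are highest in CBZ 1, at 106 and 72.4.

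The paralogs of Zfp36 were measured well. Zfp36l2 read 2998, 2533 and 3321 in DMSO and 1622, 2069 and 2120 in CBZ, with no overlap and a log2 fold change of -0.61 ± 0.16 (SE, n = 3; limma's adjusted p = 0.28). Zfp36l1 was at -0.54 ± 0.21, with CBZ 1 at 3799 just below the lowest DMSO value of 3822 (limma's adjusted p = 0.46), and its value ran from -0.78 to -0.05 over the alternatives. Zfp36l3, chosen after its value was seen as the last of the 4 genes compared, was at 0.05 ± 0.16 and turned sign under 4 of 17 alternatives. The growth factor gene Vegfa, whose message carries AU-rich elements, was at -0.12 ± 0.13. Of the 16 genes of this list, paralogs and AU-rich messages such as Tnf and Il6, 4 were bright enough to compare and 0 passed the threshold in limma, with 2 at an unadjusted p under 0.05, beside 8.96% of all genes.

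Mouse-to-mouse spread differed widely between the 7 probes. It comes from the same signals as the contrast known when the genes were chosen, so it is given as description only. The SD within groups was 0.46 on the log2 scale for Egr1, above that of 95.2% of probes, and 0.39 for Ccn2. It was 0.16 for Ccn1, 0.14 for Ier2 and 0.098 for the dimmer of the Srf probes compared, which 10.8% of probes were below, while the median over all probes was 0.19. The brighter Srf probe and the Ier5 probe had SDs of 0.26 and 0.29. The standard error of the difference was thus smaller for Ccn1, at 0.15, than for Egr1, at 0.28.

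The profiles over the 6 mice were compared by the root mean square difference of log2 values, each centred on its own mean. Ier2 and the dimmer Srf probe were the nearest pair of probes, at 0.15, nearer than the 2 Srf probes were to each other, at 0.23. Egr1 and Ccn1 differed by 0.39, Ccn1 and Ccn2 by 0.87, and Egr1 and Ccn2, the farthest pair, by 1.17. Among 15616 other genes measured on all arrays, Ccn1 was the second nearest to Egr1. These distances include the difference between the groups, on which the early genes were chosen, so nothing is read from their ranks. The named genes nearest to Egr1 were Msantd1 at 0.37, Ccn1, Ankrd37 at 0.41, Tesmin at 0.44 and Cabyr at 0.45. Nearest to Ccn1 were Prkd3, which encodes a protein kinase D, at 0.17, Zbtb12 at 0.17, the choline kinase gene Chka at 0.18, and Fam83g and Bcorl1, both at 0.20. All 10 of these had lower means in CBZ, as the measure selects for, with log2 fold changes from -1.13 for Ankrd37 to -0.76 for Bcorl1.

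**Figure D3:**
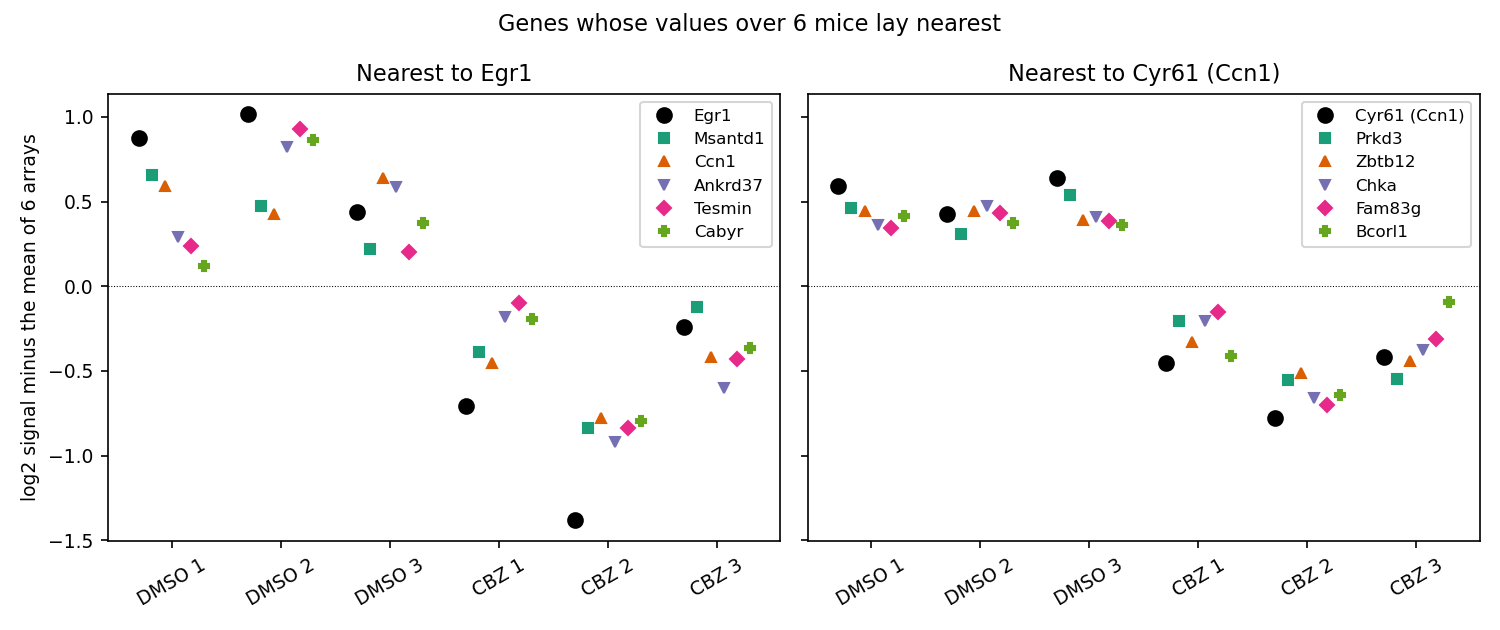
Log2 signal minus the mean of 6 arrays for Egr1 and Cyr61 (Ccn1), in black, and the 5 named genes nearest to each, in colour, for each mouse. Every gene shown is above its own mean in the DMSO mice and below it in the CBZ mice, and Egr1 has the widest range.

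Other immediate early genes, 36 in a list, included 2 that rose in CBZ and none that passed the threshold as lower. Of the 27 that could be compared, 17 were higher and 10 lower in CBZ, with a median log2 fold change of 0.32 beside -0.0043 for all 17047 genes. In limma 2 rose past the adjusted threshold and 0 fell, beside 0.0528% of all genes past it. At an unadjusted p under 0.05 there were 10 higher and 4 lower, where 5% of all genes were higher and 3.97% lower. The groups did not overlap in 9 that were higher and 3 that were lower, beside 6.26% of all genes higher in that way and 12.9% in either direction. As this list was also chosen with earlier results of these data known, nothing is read from these shares. Gadd45b, a stress gene of the growth arrest family, rose from 461, 438 and 494 in DMSO to 2812, 3307 and 4959 in CBZ (log2 fold change 2.95 ± 0.20 SE, limma's adjusted p = 0.0056). The growth-driving factor gene Myc rose from 106, 78.1 and 106 to 316, 247 and 341 (1.64 ± 0.18, limma's adjusted p = 0.030). Every CBZ mouse lay above every DMSO mouse for both genes and below them all for Egr1. That restates the group differences and shows no link between the genes from mouse to mouse. Gadd45b passed under 14 of 17 alternatives and Myc under 8. With no filter on dim probes, without DMSO 3 or without CBZ 2 neither passed. Myc was also lost with slide row as a covariate, with quantile normalisation, with scaling over detected probes and without DMSO 1, DMSO 2 or CBZ 3. Their fold changes ran from 2.60 to 3.13 and from 1.07 to 1.78 on the log2 scale, and the median of the 27 genes was 0.14 without CBZ 3.

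Among those that did not pass, Fosl2, a FOS-related subunit of AP-1, was at 0.80 ± 0.17 (SE, n = 3; limma's adjusted p = 0.17). Jun, the core AP-1 subunit, was at 0.87 ± 0.36 and the factor genes Klf4 and Klf2 at 1.04 ± 0.23 and 1.08 ± 0.30, all with CBZ mice above DMSO mice, and these with the genes that follow were chosen after their values were seen. On the side of Egr1 were Junb, an AP-1 subunit, at -0.62 ± 0.20, the survival gene Mcl1 at -0.74 ± 0.20, the inhibitor of basic helix-loop-helix factors Id2 at -0.87 ± 0.21 and the ERK phosphatase gene Dusp6 at -0.64 ± 0.22, whose groups overlapped. Sik1 had the largest rise of those that did not pass, at 1.19 ± 0.38 (SE), without overlap. Junb was well above background on every array but dim, at 69.5 to 121 in DMSO and 53.5 to 58.9 in CBZ. Over the alternatives Junb ran from -0.78 to -0.29. Klf4 passed the filter but was not well above background on every array. It read 37.7, 37.6 and 39.4 in DMSO and 56.8, 114 and 75.2 in CBZ. Its fold change and the gap between its groups may thus rest on DMSO readings near background. The same holds for its place in the counts of higher genes above. Fos, Fosb and Arc were too dim to compare. Array median scaling, under which the median of all probes was -0.11 and not -0.0062, left 15 higher and 12 lower.

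**Figure D4:**
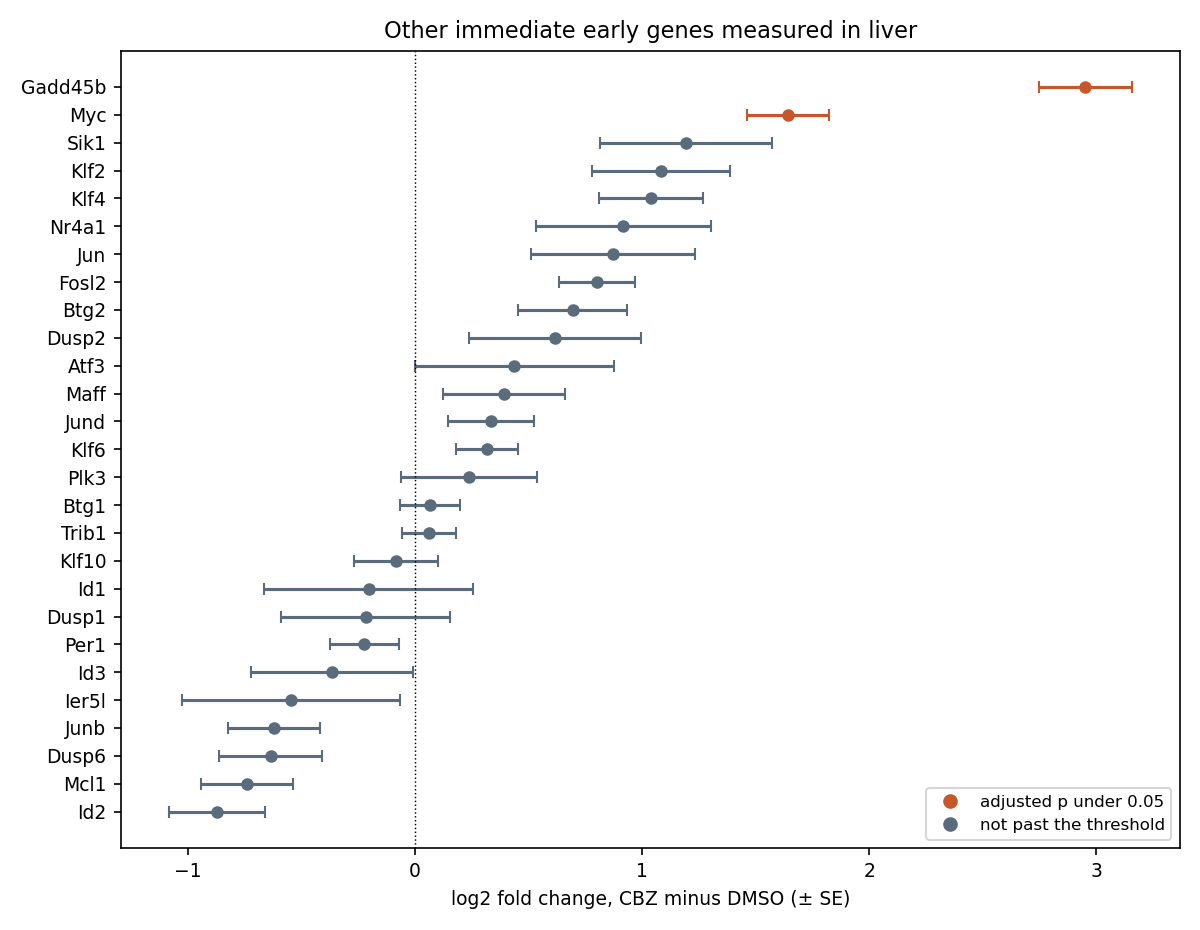
Log2 fold change (CBZ minus DMSO, ± SE, n = 3 mice per group) of the 27 other immediate early genes compared, in order of size, with those past limma's adjusted p of 0.05 in orange. Gadd45b at 2.95 and Myc at 1.64 are the 2 past the threshold, and Id2 at -0.87 is the lowest.

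Factors and targets of YAP, TAZ and TEAD, the pathway of which Ccn1 and Ccn2 are standard readouts, showed no common direction. Of 37 genes 29 were compared, 15 higher and 14 lower, with 0 past the threshold in limma and 4 at an unadjusted p under 0.05, beside 8.96% of all genes. The median was 0.05, or -0.05 with array median scaling. Igfbp3, a binding protein of insulin-like growth factors, was at 0.84 ± 0.18 (SE, n = 3; limma's adjusted p = 0.17), and Nt5e, an ecto-nucleotidase gene, at 0.47 ± 0.17. Igfbp3 passed the filter but was not well above background on every array. It read 48.2, 31.4 and 36.6 in DMSO and 66.6, 74.8 and 63.4 in CBZ. Its fold change, and its place among the 4 genes, may thus rest on DMSO readings near background. Dock5, a guanine exchange factor gene, was at -0.34 ± 0.13, with 3 CBZ mice below the DMSO mice. Ankrd1, often read beside Ccn1 and Ccn2, was too dim to compare.

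For SRF, 5 of 6 cofactor genes were compared and 0 passed the threshold in limma, with 1 at an unadjusted p under 0.05, beside 8.96% of all genes. That gene was Mkl2, an actin-sensing coactivator, at 0.31 ± 0.13 (SE, n = 3; limma's adjusted p = 0.52). The ternary complex factor genes Elk1 and Elk4 were at -0.08 ± 0.12 and -0.06 ± 0.14. The Elk1 probe, the brighter of 2, read 142480 to 156840 over all mice, above the actin gene Actb at 73897 to 89068. Whether it reads the Elk1 message alone was not tested. Of 23 actin cytoskeleton targets of SRF 19 were compared, 14 higher and 5 lower, with a median of 0.05, which array median scaling turned to -0.05 with 7 higher and 12 lower. None of them passed in limma, and 1 had an unadjusted p under 0.05 (8.96% of all genes did), the cytoplasmic actin gene Actg1 at 0.70 ± 0.22 (limma's adjusted p = 0.34). Tagln2 and Tpm2, of actin bundling and tropomyosin, were at 0.28 ± 0.17 and 0.31 ± 0.23.

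The differences of the 7 probes were recomputed under 17 alternatives, 6 of which left out 1 mouse. Egr1, Ccn1, Ier2 and both Srf probes stayed lower in CBZ and Ccn2 stayed higher in all 17, and Ier5 changed sign in 3. Ccn1 passed limma's adjusted threshold under 6 of them and Egr1 under 3, which are normexp, array median scaling and the authors' table, the last 2 of which share 1 scaling. No probe of the 7 passed when any 1 mouse was left out, with the replicate number as a block or with the slide row as a covariate.

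**Figure D5:**
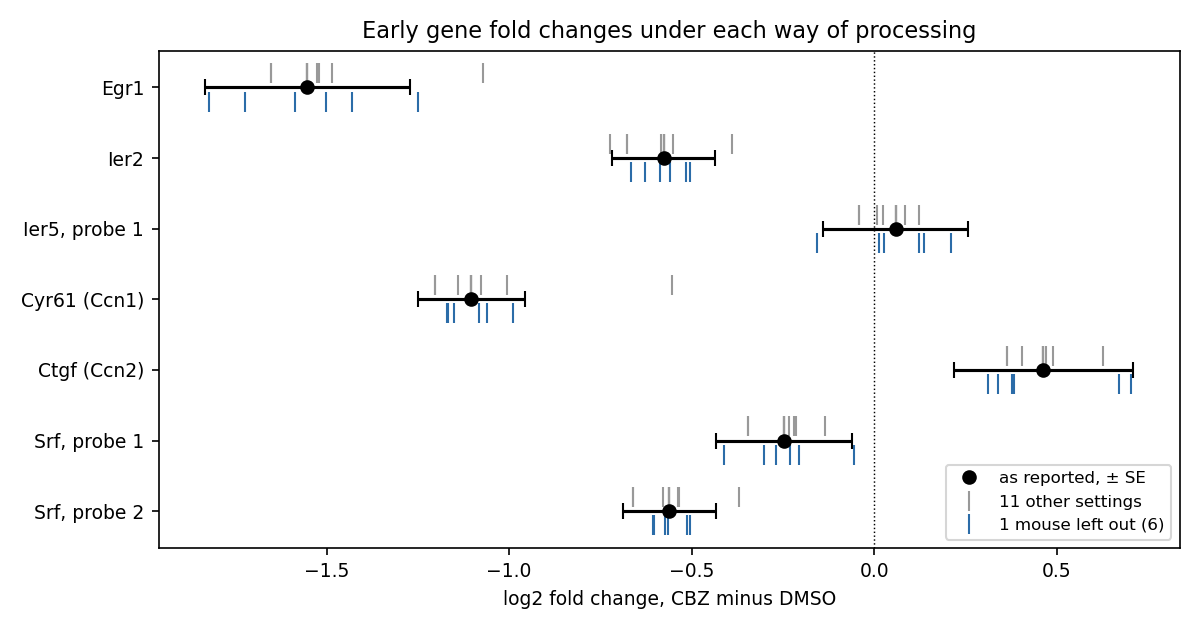
Log2 fold change (CBZ minus DMSO) of the 7 probes, with the reported value ± SE in black, 11 other ways of processing as grey ticks above it and the 6 fits without 1 mouse as blue ticks below it. Only Ier5 has ticks on both sides of 0, and the grey ticks nearest 0 for Egr1 at -1.07 and Ccn1 at -0.55 are normexp.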

How the data were processed

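Whole-liver RNA of 3 CBZ and 3 DMSO mice was read on 1 array each, grouped by the labels. Per the file headers, Agilent Feature Extraction 10.7.3.1 made the authors' files from the scans, and the deposited intensity is background-subtracted and detrended on a linear scale. The authors' deposited table holds a ratio of that intensity to the array's median, as the values showed.

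Control spots and outlier spots (114 to 126 per array) were left out, each array's processed intensity was divided by its 75th percentile over the 59305 other spots before log2 was taken, and spots of a probe were averaged. A 75th percentile was 9.89 to 12.3 times the median local background. Groups were compared by two-sided moderated tests without covariates (lmFit, then eBayes, of limma 3.58.1, R 4.3.3), and p-values were adjusted by Benjamini-Hochberg over 22352 probes. A list gene was represented by its brightest probe. On simulated data with 22352 probes, 58.9% of probes changed 2-fold and 92.7% of those changed 4-fold were called in this comparison. The simulated noise was independent between probes, with the SDs of these arrays and no array or slide row effect. The shares called hold for that setting only. Names came from RefSeq tables (GRCm38.p6), by accession for 27428 probes, symbol for 3483 and synonym for 507, and 24263 kept the file's name.

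The 10 genes and all lists were chosen with earlier results of these data known, so their counts beside the shares of all genes are description only. Named are the 10 genes, up to 3 genes of each list by smallest p, any past the threshold, and the 5 genes nearest to Egr1 and to Ccn1 (clone names left out). Any other gene with a value is marked as picked later. Alternatives were the authors' table, normexp (offset 50), median scaling, quantile normalisation, and testing unfiltered probes or those detected on all 6 arrays. Others were robust eBayes with a trend, slide row, the replicate block, outlier spots kept, and leaving out each mouse. An adjusted p under 0.10 was tried for counts of calls only, and is not among the alternatives counted for single genes. Scaling over detected probes was added after seeing the data.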

Additional observations from a re-analysis of the deposited data

Results flagged for a closer look

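Both of these probes were left out of the comparison as too dim, and each read higher in 1 CBZ mouse than in every DMSO mouse. The Egr3 probe reached a scaled intensity of 106 in CBZ 1, where the highest DMSO mouse read 63.8. The dimmer Ier5 probe reached 72.4 in CBZ 1, where the highest DMSO mouse read 40.2 and no DMSO mouse was well above background, so no fold is given. In CBZ 2 and CBZ 3 neither probe was well above background, and groups of 3 mice are too small for a test of outlying samples.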

How the results depend on the processing

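Over all probes limma called 12 higher and 2 lower in CBZ, so 85.7% of calls were rises. Calls were 76 and 54 with normexp (58.5% rises), 60 and 71 with array median scaling and equally with the authors' table (45.8%), 5 and 2 with quantile normalisation (71.4%), 31 and 12 with the filter on all 6 arrays, 83 and 91 with an intensity trend, 4 and 3 with slide row as a covariate, 37 and 21 at an adjusted p under 0.10, and 6 and 0 with scaling over detected probes, where 892 were lower at an unadjusted p under 0.05. With no filter limma called 0 in either direction, though an unadjusted p under 0.05 was reached by 1705 higher and 908 lower probes. Array median scaling had 89408 moderated degrees of freedom against 8.62, so its p-values rest on a variance common to all probes. Leaving out 1 mouse gave 0 to 25 higher and 0 to 8 lower. These were 25 and 8 without CBZ 1, 0 and 0 without CBZ 2 (1298 and 1018 at an unadjusted p under 0.05 in limma), 1 and 0 without CBZ 3 (698 lower at that p), 3 and 1 without DMSO 1, 3 and 2 without DMSO 2, and 0 and 0 without DMSO 3 (1376 and 1460). The cause was not tested.

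The groups share replicate numbers, and a fit with the replicate number as a block gave 9 higher and 1 lower. Same-numbered mice had correlations of -0.24, 0.02 and 0.18 between their deviations, and 2 of 6 samples correlated best with their own number. With groups this small, these values cannot decide whether same-numbered mice were handled together. The median of the 7 early gene probes stayed between -0.66 and -0.37 under all alternatives. With outlier spots kept the calls were the same 14 probes. Signal over background limits Egr2, Egr3, Ier3, Zfp36 and the dimmer Ier5 probe, for which no fold between the groups was computed.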

Other observations

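Early targets of TGF-beta, a pathway that also controls Ccn2, were read from a list of 8 genes, of which 5 could be compared and 0 passed the threshold in limma, with 2 at an unadjusted p under 0.05, beside 8.96% of all genes. Both of these were higher in CBZ without overlap, as 6.26% of all genes were. Tgfb3, a TGF-beta ligand, read between 101 and 133 in DMSO and 138, 157 and 180 in CBZ (log2 fold change 0.51 ± 0.17 SE, n = 3, limma's adjusted p = 0.36). Skil, a repressor of SMAD factors and itself an early target, was at 0.43 ± 0.15 (limma's adjusted p = 0.40). The other 3 had lower means, and the SMAD corepressor gene Tgif1 was at -0.14 ± 0.14.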
